A study of Caenorhabditis elegans with 6 samples.

Results

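The genes described here are the Argonautes, the small RNA factors and the P granule genes of the nematode Caenorhabditis elegans, as they were measured by RNA sequencing of whole adults. Members were all rows of the deposited expression table whose RefSeq symbol consists of 1 of 18 family names (alg, ergo, prg, csr, hrde, nrde, wago, sago, ppw, rde, drh, rrf, ego, mut, pgl, glh, meg or deps) followed by a number. The rule used names and no measured value, and it found 54 of 20894 rows. The families were, however, chosen with earlier results of these data known. The study compared the bcf-1 mutant, which carries the allele ylf1, with the wild-type strain N2, with 3 libraries of each genotype and 6 in all. Animals of both genotypes were labelled as adults, with no finer age, and were kept on the food bacterium Escherichia coli OP50. The series text describes the replicates as independently raised and collected, and the labels do not say what ylf1 changes in the gene. Of the symbols that fit the rule, drh-2, prg-2, wago-2 and wago-11, which RefSeq lists as pseudogenes, were not analysed here.

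Argonaute proteins bind short RNAs and use them as guides to find complementary transcripts. In C. elegans, microRNAs repress their targets directly, whereas piRNAs, 26G RNAs and the guides cut from long double-stranded RNA can recruit RNA-dependent RNA polymerases, which copy the target into secondary 22G RNAs that a large worm-specific Argonaute family carries. Much of this machinery sits in the germ line, where P granules and the neighbouring mutator and Z foci lie against the nuclear pores, and it is best known for silencing transposons, for licensing germline genes and for passing silencing to the progeny.

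Expression was taken to be in FPKM, a fragment level corrected for sequencing depth and transcript length. This unit was inferred from the values. The 6 libraries summed to between 659249 and 687573 FPKM. The targeted gene bcf-1 had 63.7, 72.1 and 60.01 FPKM in the mutant libraries, against 374, 412 and 499 FPKM in the N2 libraries, so its level followed the labels. N2 replicate 1 stood apart for germline genes. All 18 meiotic germline markers (such as him-3, syp-1 and gld-1) were highest there among the N2 libraries, and their sum was 670, 647 and 649 FPKM in mutant libraries, against 603, 328 and 425 FPKM in N2 libraries. The sum of 18 oocyte markers was 621, 629.6 and 709 FPKM in mutant libraries, against 1561, 627 and 1025 FPKM in N2 libraries. The sum of 17 sperm markers was 433, 352 and 469.8 FPKM in mutant libraries, against 302, 189.6 and 245 FPKM in N2 libraries. None of the germline, oocyte and sperm markers was at 0 throughout either genotype. Of 14 early embryo markers, end-1 was at 0 in all mutant libraries and tbx-37, tbx-38 and med-1 were at 0 in all N2 libraries, and the list summed to 257 to 285 FPKM in mutant libraries, against 198 to 399 FPKM in N2 libraries. In whole animals, fewer cells of a type and less RNA per cell cannot be told apart, and this holds for every result below.

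Among the members, the clearest increases in the bcf-1 mutant were those of wago-10, of the spermatogenic Argonautes alg-3 and alg-4, of the Piwi gene prg-1 and of the secondary Argonaute ppw-2, and the only decrease was that of the embryonic P granule gene meg-1. Of the 54 members, 51 reached 1 FPKM in at least 3 libraries and were tested, together with 13576 genes in all. With an adjusted p of at most 0.05 as the threshold, 18 members were higher and 1 was lower in the mutant, and 32 did not pass. Of the 18, rrf-2 reached 1 FPKM in the mutant libraries only and so was tested through the group in which it was high. The share of members that were higher was 35.3%, beside 34.6% of all genes tested, so it was near the background, and the share that were lower was 1.96%, beside 15% of all genes tested. At an unadjusted p under 0.05, 25 members were higher (49.0%, against 39.8% of all genes tested) and 2 were lower (3.92%, against 16.8%).

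The median log2 change of the tested members was 0.39, against 0.24 for all genes tested, and it turned to -0.17 when libraries were scaled to the germline markers, where the median of all genes was -0.28. Of these 18 markers themselves, 7 were higher and none was lower (38.9% higher, against 34.6% of all genes tested), with a median log2 change of 0.55. The marker gld-1 alone averaged 205 of their 655 FPKM in the mutant, and 145 of 452 FPKM in N2. All 3 mutant libraries lay above all 3 N2 libraries in 20 members (40.4% of all genes tested did so) and below them in 3 members, meg-1, alg-2 and sago-1 (18.0% of all genes tested did so). The groups overlapped in the other 28. Of the 32 members that did not pass, adjusted p ranged from 0.0541 to 0.882, and the 95% interval of the log2 change held 0 in 24.

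**Figure D1:**
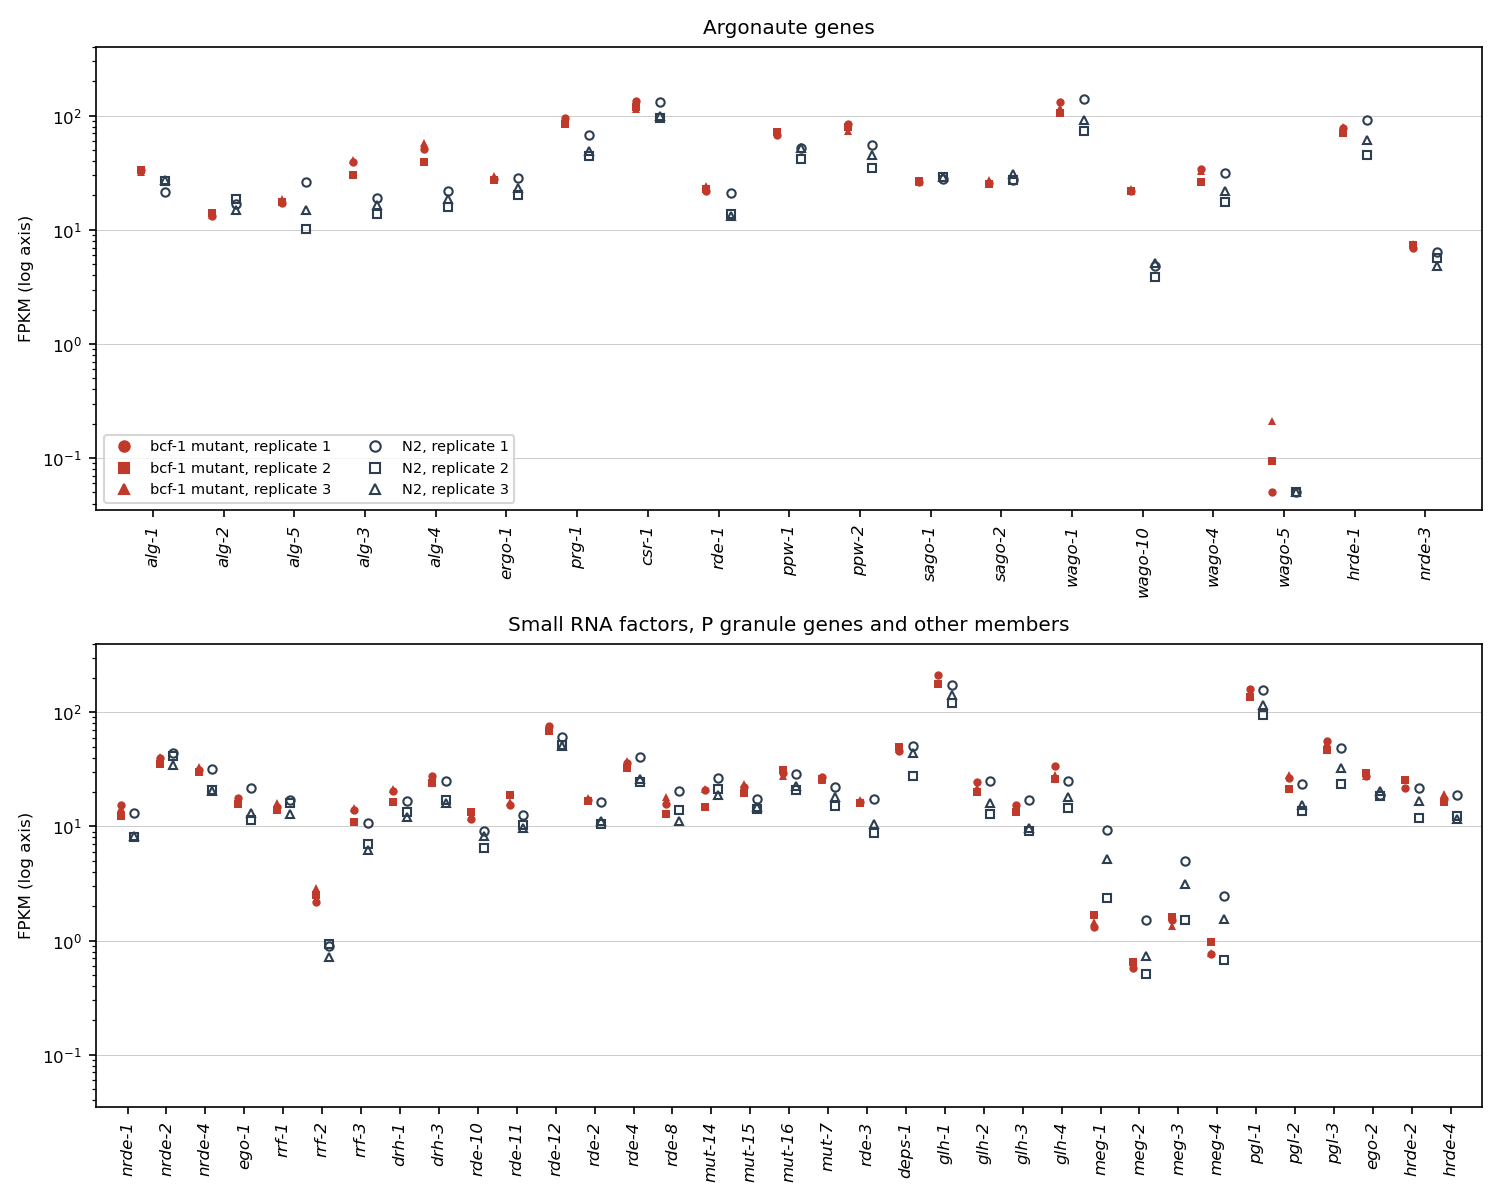
FPKM of each of the 54 members in each library, on a log axis. Filled red symbols are bcf-1 mutant libraries, open dark symbols to their right are N2 libraries, shapes are replicates, and values of 0, which occur for wago-5 alone, are drawn at 0.05. The mutant and N2 libraries are wide apart for wago-10, alg-3, alg-4 and rrf-2. For meg-1 they do not overlap, but N2 replicate 2 (open square) lies near the mutant libraries. For most others N2 replicate 1 (open circle) lies at or near the mutant libraries.

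Much of the count turned on N2 replicate 1. That library was the highest of the N2 libraries in 44 of the 51 tested members (86.3%, against 48.7% of all genes tested), and the median member was 1.48 times as high there as in N2 replicate 2, against 1.06 times for the median of all genes tested. The members summed to 2025, 1827 and 1947 FPKM in the mutant libraries, against 1842, 1233 and 1397 FPKM in the N2 libraries. N2 replicate 1 therefore fell within the range of the mutant libraries. Without it, 41 of 51 members were higher (80.4%, against 42.8% of all genes tested) and 1 was lower. Leaving out another library gave fewer calls, and mostly a share of members below that of all genes. The members higher were 11 without N2 replicate 2 (21.6%, against 28.8% of all genes) and 10 without N2 replicate 3 (19.6%, against 27.9%). They were 9 without mutant replicate 1 (18.0%, against 22.2%), 15 without mutant replicate 2 (30.0%, against 28.5%) and 9 without mutant replicate 3 (18.0%, against 23.1%).

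The scaling of the libraries mattered as well. With median-ratio scaling, which brought the median change of all genes from 0.24 to 0.00, 6 members were higher (alg-3, alg-4, prg-1, ppw-2, rrf-2 and wago-10) and 6 were lower (alg-2, meg-1, meg-3, mut-14, sago-1 and sago-2). Each count is 11.8% of the members, against 22.6% of all genes higher and 22.8% lower in that setting. With libraries scaled to the germline markers, 3 were higher (alg-4, rrf-2 and wago-10) and 4 were lower (alg-2, meg-1, meg-3 and mut-14), which is 5.88% and 7.84% of the members, against 9.63% and 22.9% of all genes. Under both scalings rrf-2 was tested only because the mutant libraries, in which it was high, reached the filter. The sign of the change was positive in 43 members as reported and in 11 with germline-marker scaling, and those that turned negative had a change of 0.54 or less. The increase was kept whichever library was left out in 9 members, namely alg-3, alg-4, prg-1, ppw-1, ppw-2, wago-10, rde-10, rde-11 and ego-2.

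**Figure D2:**
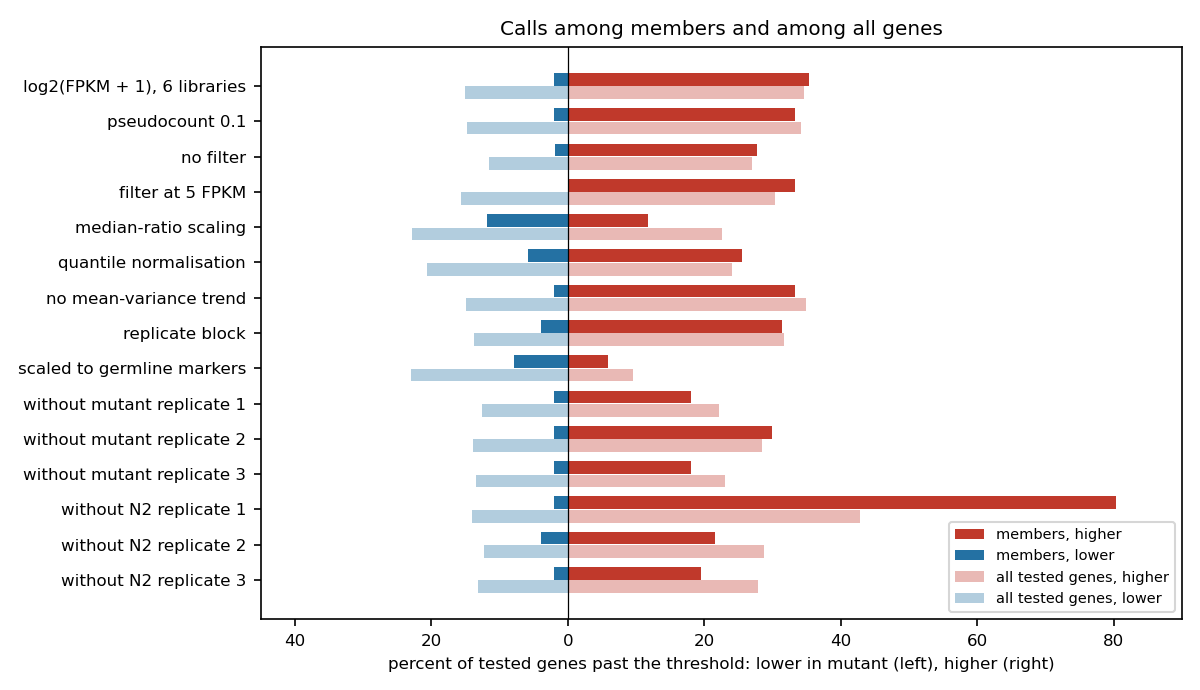
Percent of tested members (dark bars) and of all tested genes (pale bars) past the threshold, higher in the bcf-1 mutant to the right and lower to the left, under each processing setting. The share of members higher was 35.3% with all 6 libraries and reached 80.4% without N2 replicate 1.

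**Figure D3:**
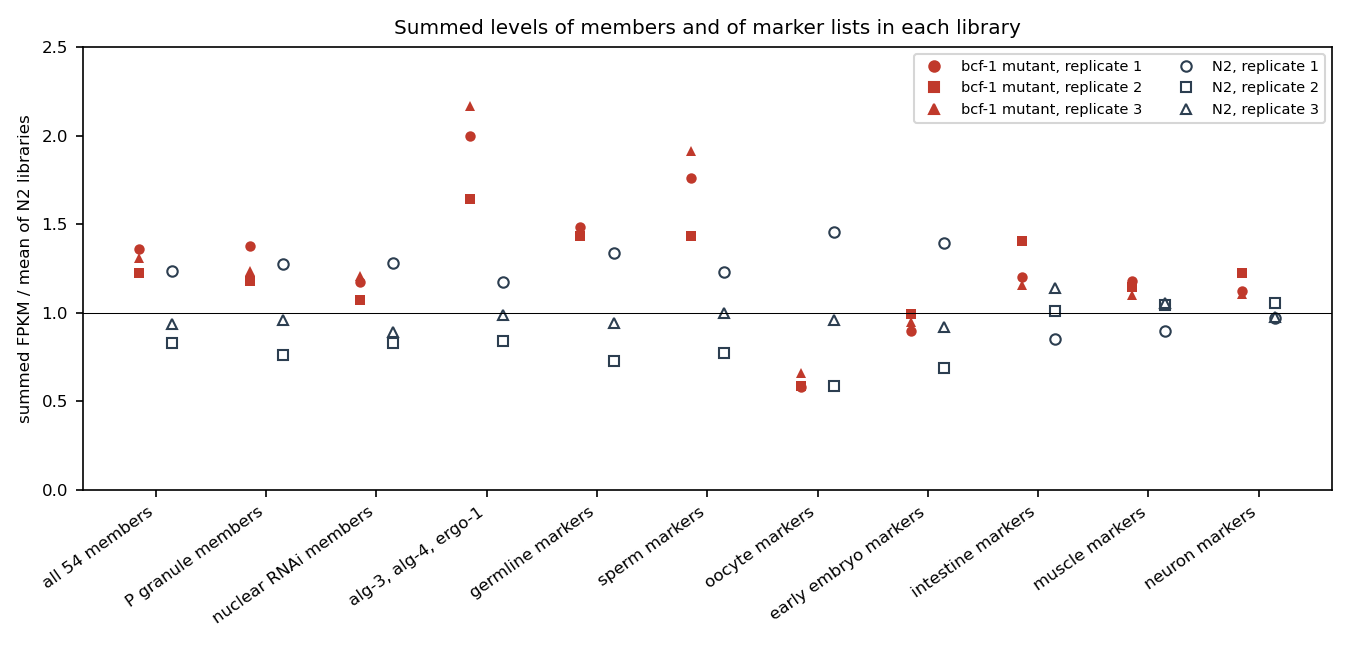
Summed FPKM of member groups and of marker lists in each library, divided by the mean of the N2 libraries. Filled red symbols are bcf-1 mutant libraries and open symbols are N2 libraries. N2 replicate 1 (open circle) is the highest N2 library for the members, germline, sperm, oocyte and early embryo lists and the lowest for the intestine and muscle lists.

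Among the microRNA Argonautes, 1 of 3 tested genes passed, as higher (33.3%, against 34.6% of all genes tested). The closely related alg-1 and alg-2 carry microRNAs in most tissues. For alg-1, the FPKM was 33.7, 33.7 and 31.9 in the mutant libraries, against 21.6, 26.6 and 27.1 in the N2 libraries. The groups did not overlap, and the rise was 0.39 ± 0.13 (log2 change ± SE, adjusted p = 0.0366). That call was lost when any mutant replicate or N2 replicate 3 was left out. It was also lost with median-ratio scaling, with quantile normalisation and with the replicate block, and the sign turned under germline-marker scaling (-0.17). For alg-2, the FPKM was 13.4, 14.04 and 13.6 in the mutant libraries, against 16.9, 18.6 and 14.98 in the N2 libraries. All mutant libraries were below all N2 libraries, at a log2 change of -0.28 (95% interval -0.58 to 0.03, adjusted p = 0.121). Within a library, the alg-1 to alg-2 ratio of FPKM was 2.52, 2.40 and 2.34 in the mutant, against 1.28, 1.43 and 1.81 in N2. This ratio was chosen after its values were seen and was given no test, and the sources do not tell how reads of such near copies were divided. The third, alg-5, a germline microRNA Argonaute, had a log2 change of 0.16 (95% interval -0.48 to 0.79), with the highest of all 6 values, 26.2 FPKM, in N2 replicate 1.

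The spermatogenic pair rose strongly. The genes alg-3 (chromosome IV, 11704246 to 11708264, plus strand, WBcel235) and alg-4 (chromosome III, 9887210 to 9891424, minus strand) encode redundant Argonautes that bind 26G RNAs during spermatogenesis. For alg-3, the FPKM was 39.4, 30.1 and 40.7 in the mutant libraries, against 19.2, 13.7 and 16.5 in the N2 libraries. For alg-4, it was 51.01, 39.7 and 57.7 in the mutant libraries, against 21.9, 15.9 and 18.6 in the N2 libraries. Every mutant library stood well above every N2 library for both genes. The means differed 2.23 times for alg-3 (log2 change 1.11 ± 0.17 SE, adjusted p = 0.000773) and 2.63 times for alg-4 (log2 change 1.35 ± 0.18 SE, adjusted p = 0.00033), which is 0.88 and 1.11 above the median change of all genes. The call for alg-3 was lost only when libraries were scaled to germline markers, and that for alg-4 held in all 14 alternative settings. Relative to the summed germline markers, alg-3 stood at 0.0588, 0.0466 and 0.0628 in the mutant libraries, against 0.0318, 0.0419 and 0.0387 in the N2 libraries.

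The sperm markers moved with this pair. Of the 17 sperm markers, 13 were higher in the mutant and none was lower (76.5% higher, against 34.6% of all genes tested), with a median log2 change of 1.04, and their summed level overlapped in no library, at 352 to 469.8 FPKM in the mutant against 189.6 to 302 FPKM in N2. Their part in the levels of alg-3 and alg-4 was not tested. The remaining 26G Argonaute, ergo-1, which acts in oocytes and embryos, did not pass. Its FPKM was 27.7, 27.3 and 29.7 in the mutant libraries, against 28.3, 20.2 and 23.2 in the N2 libraries. The groups overlapped through N2 replicate 1, and the log2 change was 0.24 (95% interval -0.09 to 0.58).

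The Piwi Argonaute gene prg-1 (chromosome I, 7585329 to 7588367, minus strand), whose product binds piRNAs in the germ line, rose. Its FPKM was 96.0, 85.0 and 88.7 in the mutant libraries, against 68.3, 44.1 and 49.4 in the N2 libraries, with no overlap. The mean was 1.67 times as high in the mutant, at a log2 change of 0.75 ± 0.17 (SE) and an adjusted p of 0.00551, a call lost with germline-marker scaling (0.18, adjusted p = 0.546). Without N2 replicate 1 the log2 change was 0.93. Against the summed germline markers prg-1 overlapped between the groups, at 0.143, 0.131 and 0.137 in the mutant libraries, against 0.113, 0.134 and 0.116 in the N2 libraries. An unnamed coding gene, D2030.12, overlaps prg-1 on the opposite strand, and the sources do not tell whether reads were counted by strand.

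CSR-1 binds 22G RNAs made on germline-expressed genes and can cut its targets, and RDE-1 carries the primary guides of exogenous RNA interference. For csr-1, the FPKM was 133.5, 120.3 and 114 in the mutant libraries, against 132.6, 95.04 and 98.9 in the N2 libraries. N2 replicate 1 lay just under the highest mutant library, and the change of 0.18 (log2, 95% interval -0.16 to 0.52) did not pass. For rde-1, the FPKM was 21.98, 22.6 and 24.4 in the mutant libraries, against 21.1, 13.7 and 13.3 in the N2 libraries. The mutant libraries were all above the N2 libraries, by a narrow gap to N2 replicate 1, and rde-1 was higher at a log2 change of 0.52 ± 0.18 (SE, adjusted p = 0.0411), a call lost in 10 of 14 settings, among them the omission of any library but N2 replicate 1, and with a sign that turned under germline-marker scaling (-0.025). The prg-1 to csr-1 ratio within a library, chosen after its values were seen, was 0.719, 0.707 and 0.777 in the mutant, against 0.515, 0.464 and 0.499 in N2.

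Of the 8 cytoplasmic worm-specific Argonautes, 7 were tested and 3 were higher (42.9%, against 34.6% of all genes tested). The largest change of any member was that of wago-10 (chromosome V, 343428 to 347640, plus strand), a worm-specific Argonaute gene known for its expression in the spermatogenic germ line. Its FPKM was 22.1, 21.8 and 23.0 in the mutant libraries, against 4.78, 3.86 and 5.11 in the N2 libraries. The 3 libraries of each genotype lay close together and far from those of the other. The mean was 4.87 times as high in the mutant, at 22.3 ± 0.622 FPKM against 4.58 ± 0.647 FPKM in N2 (SD, n = 3 each), with a log2 change of 2.07 ± 0.14 (SE) and an adjusted p of 1.43e-05. Across the 14 alternative settings the log2 change of wago-10 lay between 1.55 and 2.27, and it passed in each.

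The paralogues ppw-1 and ppw-2, which carry secondary 22G RNAs, also rose. For ppw-2 (also called wago-3), the FPKM was 85.0, 80.4 and 73.4 in the mutant libraries, against 55.9, 34.8 and 45.2 in the N2 libraries. The groups did not overlap, and the mean was 1.76 times as high in the mutant (log2 change 0.82 ± 0.17 SE, adjusted p = 0.00415), a call lost with germline-marker scaling (0.25, adjusted p = 0.375). For ppw-1, the mean was 70.4 ± 2.34 FPKM in the mutant, against 48.6 ± 5.56 FPKM in N2 (SD, n = 3 each), a log2 change of 0.53 that turned to -0.038 under germline-marker scaling. The other close relatives gave no such difference. For sago-1, a secondary siRNA Argonaute gene known from somatic tissue, all mutant libraries lay just below all N2 libraries, at 26.1 to 26.9 FPKM in the mutant against 27.9 to 28.9 FPKM in N2, a log2 change of -0.10 (95% interval -0.36 to 0.15). For sago-2 the log2 change was -0.12 (95% interval -0.40 to 0.15).

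The P granule Argonaute gene wago-1 and the inheritance Argonaute gene wago-4 did not pass. For wago-1, the FPKM was 132, 107 and 116 in the mutant libraries, against 139.8, 73.8 and 91.1 in the N2 libraries. For wago-4, the FPKM was 33.9, 26.4 and 32.6 in the mutant libraries, against 31.5, 17.4 and 21.8 in the N2 libraries. In both, N2 replicate 1 was within or above the mutant libraries, with log2 changes of 0.26 (wago-1, adjusted p = 0.342) and 0.41 (wago-4, adjusted p = 0.133). Without N2 replicate 1 both passed, at 0.52 (wago-1, adjusted p = 0.0168) and 0.64 (wago-4, adjusted p = 0.0116). The remaining gene, wago-5, was too low to test, with 0, 0.0953 and 0.212 FPKM in the mutant libraries and a listing of 0 in each N2 library.

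The nuclear RNAi genes, whose products carry silencing to chromatin, had no member past the threshold among 5 tested. Of all genes tested, 34.6% were higher and 15% were lower. For hrde-1 (heritable silencing in the germ line), the FPKM was 77.6, 71.1 and 79.3 in the mutant libraries, against 90.8, 44.9 and 61.7 in the N2 libraries. The highest and the lowest of the 6 values were both N2 libraries, and the log2 change was 0.26 (95% interval -0.25 to 0.77). For nrde-3, the somatic nuclear Argonaute gene, the FPKM was 6.99, 7.34 and 7.47 in the mutant libraries, against 6.38, 5.63 and 4.85 in the N2 libraries. The mutant libraries were all higher, but the log2 change of 0.33 (95% interval -0.01 to 0.66) did not pass (adjusted p = 0.0932). At an unadjusted p under 0.05, limma gave 1 of the 5 as higher, nrde-1. The cofactor genes nrde-1, nrde-2 and nrde-4 had log2 changes of 0.50, -0.04 and 0.38. Without N2 replicate 1, 4 of the 5 passed as higher (42.8% of all genes did so), and none passed in the other 13 settings.

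**Figure D4:**
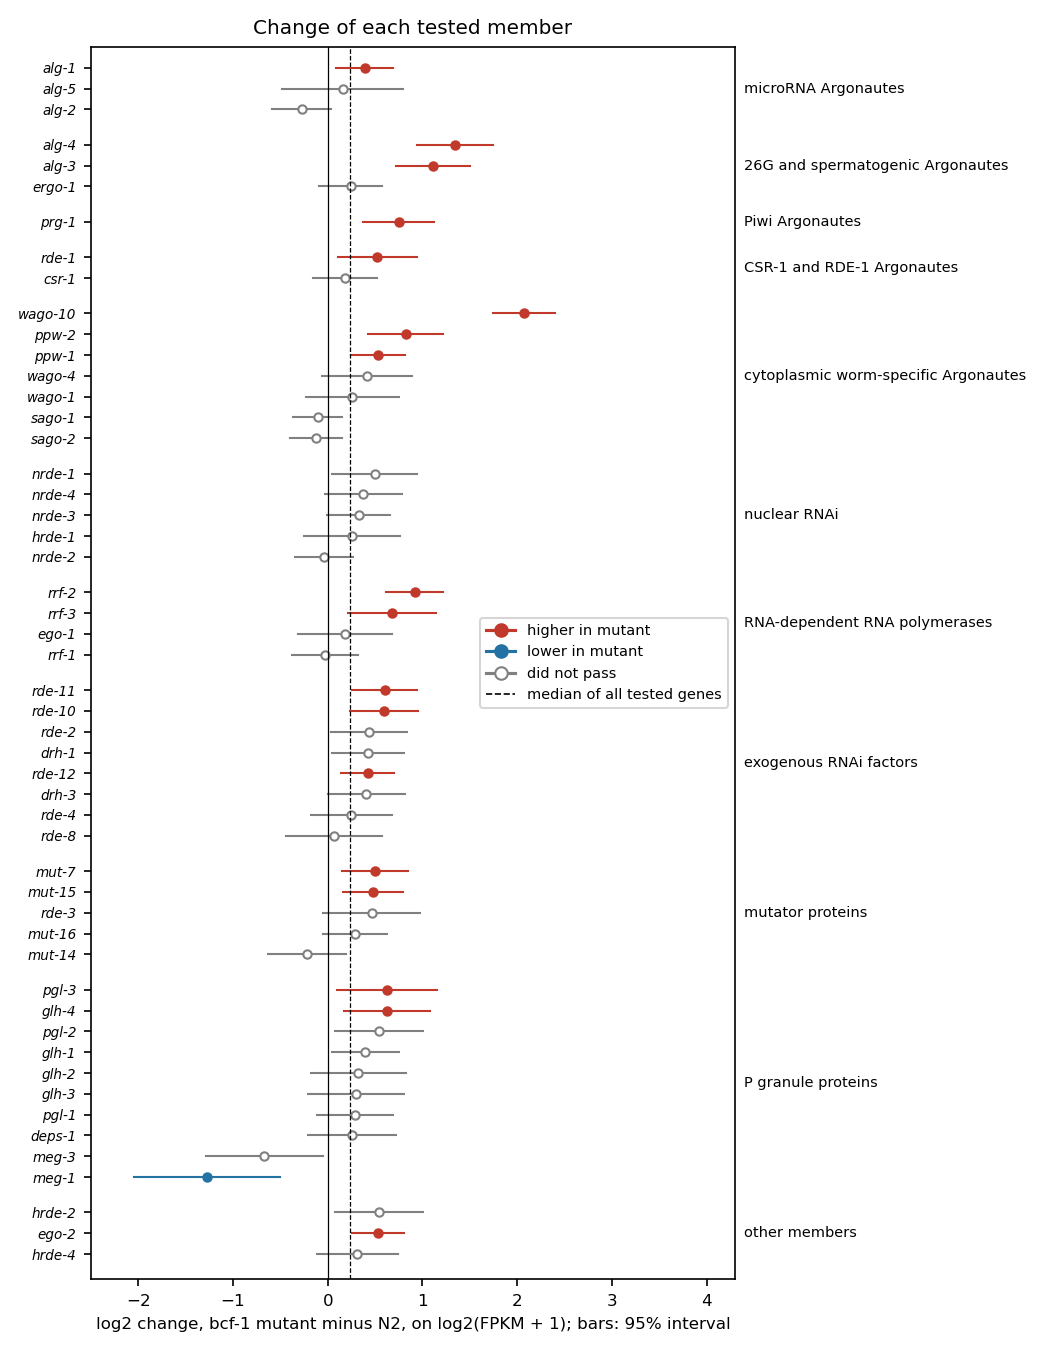
Log2 change of each of the 51 tested members (bcf-1 mutant minus N2, on log2(FPKM + 1)) with its 95% interval, grouped by role. Red points passed the threshold as higher, blue as lower and open grey points did not pass, and the dashed line is the median of all tested genes (0.24). The positive changes of 0.54 or less, ppw-1 and ego-2 among them, were below 0 when libraries were scaled to the germline markers.

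As shares of the summed FPKM of all 19 Argonaute genes, csr-1 and wago-1 were the most abundant in both genotypes, with 14.1% and 13.5% in the mutant, against 16.8% and 15.4% in N2. The spermatogenic pair took larger shares in the mutant. The share of alg-4 averaged 5.66% in the mutant and 2.91% in N2, and that of alg-3 averaged 4.20% in the mutant and 2.55% in N2. By rank these were the 7th and 8th in the mutant, against 12th and 14th in N2. The share of wago-10 averaged 2.56% in the mutant and 0.716% in N2, while that of sago-1 averaged 3.04% in the mutant and 4.52% in N2. No test was made on these shares.

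**Figure D5:**
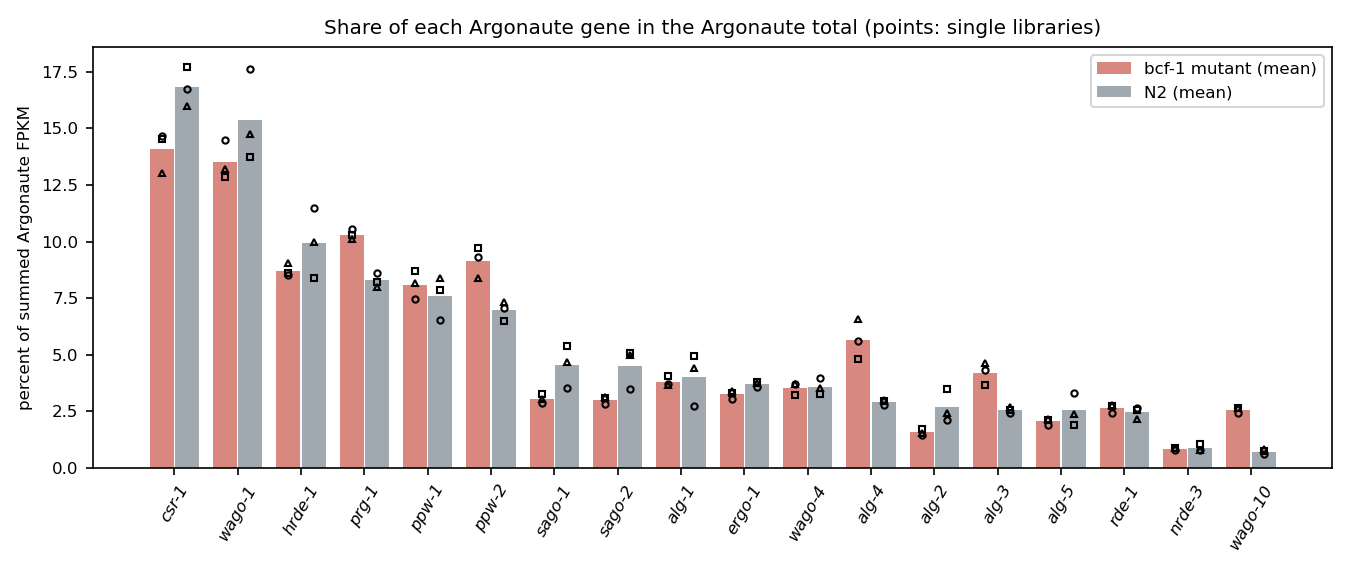
Share of each Argonaute gene in the summed FPKM of the 19 Argonaute genes of a library, in percent, with wago-5 left off the axis. Bars are means of 3 libraries (bcf-1 mutant red, N2 grey) and points are single libraries. The shares of alg-3, alg-4 and wago-10 are higher in every mutant library than in any N2 library.

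Of the 4 RNA-dependent RNA polymerases tested, 2 were higher and 2 did not pass (34.6% of all genes tested were higher). For rrf-3, which makes the precursors of 26G RNAs, the FPKM was 14.005, 11.01 and 14.5 in the mutant libraries, against 10.7, 7.02 and 6.25 in the N2 libraries. The groups were separated by a small gap between the lowest mutant library and N2 replicate 1, and rrf-3 was higher at a log2 change of 0.68 ± 0.21 (SE, adjusted p = 0.0224), a call lost without mutant replicate 1 or 3, without N2 replicate 2 or 3, with median-ratio scaling (0.44), with quantile normalisation (0.42) and with germline-marker scaling (0.16). For rrf-2, a paralogue, the FPKM was 2.17, 2.49 and 2.87 in the mutant libraries, against 0.900, 0.941 and 0.724 in the N2 libraries. The mean was 2.94 times as high in the mutant, but rrf-2 reached 1 FPKM in the mutant libraries only and so entered the test through the group in which it was high.

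The polymerases of the 22G pathways, ego-1 in the germ line and rrf-1, did not pass. For ego-1, the FPKM was 17.7, 15.8 and 17.1 in the mutant libraries, against 21.5, 11.4 and 12.99 in the N2 libraries. For rrf-1, it was 14.9, 13.8 and 16.1 in the mutant libraries, against 17.2, 16.04 and 12.8 in the N2 libraries. In both genes N2 libraries lay on either side of the mutant ones, and the log2 changes were 0.18 (ego-1, 95% interval -0.31 to 0.67) and -0.03 (rrf-1, 95% interval -0.38 to 0.32). The genes lie 563 bases apart on chromosome I, minus strand.

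The exogenous RNAi factors had 3 higher of 8 tested (37.5%, against 34.6% of all genes tested). The products of rde-10 and rde-11 form a complex that acts after RDE-1. For rde-10, the FPKM was 11.7, 13.3 and 12.1 in the mutant libraries, against 9.05, 6.43 and 8.28 in the N2 libraries. For rde-11, it was 15.5, 18.96 and 16.4 in the mutant libraries, against 12.5, 10.2 and 9.76 in the N2 libraries. All mutant libraries were above all N2 libraries for both, and the log2 changes were 0.59 (rde-10, adjusted p = 0.0136) and 0.60 (rde-11, adjusted p = 0.00998). Both calls were lost with median-ratio scaling (0.35 and 0.36), with quantile normalisation (0.31 and 0.37) and with germline-marker scaling (0.066 and 0.063). The DEAD-box helicase gene rde-12 was higher at 0.42, which turned to -0.15 under germline-marker scaling. Its call was also lost with median-ratio scaling (0.16), with the replicate block, without mutant replicate 1 or 3 and without N2 replicate 2 or 3.

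The RIG-I-like helicase gene drh-1, which is needed for antiviral RNAi, had 20.3, 16.3 and 21.4 FPKM in the mutant libraries, against 16.8, 13.5 and 12.2 FPKM in the N2 libraries. The groups overlapped, and the log2 change of 0.43 missed the threshold (adjusted p = 0.0602). The remaining factors did not pass either. They were rde-2 (with mut-7 in the mutator complex, log2 change 0.44), drh-3 (a helicase of the polymerase complex, 0.41), rde-4 (the double-stranded RNA binding partner of Dicer, 0.25) and rde-8 (an endonuclease, 0.07).

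Of 5 mutator genes, mut-15 and mut-7 were higher (34.6% of all genes tested were). The mutator foci amplify secondary siRNAs, and MUT-7 is a putative exonuclease within them. For mut-15, the mean was 21.9 ± 1.98 FPKM in the mutant, against 15.4 ± 1.66 FPKM in N2, and for mut-7 it was 26.3 ± 0.670 FPKM in the mutant, against 18.5 ± 3.52 FPKM in N2 (SD, n = 3 each). Their log2 changes were 0.48 (mut-15, adjusted p = 0.0201) and 0.50 (mut-7, adjusted p = 0.0252), which turned to -0.072 and -0.054 under germline-marker scaling. Both calls were also lost with median-ratio scaling (0.23 and 0.25), without mutant replicate 1 or 3 and without N2 replicate 2 or 3. That of mut-15 was lost with quantile normalisation as well, and that of mut-7 without mutant replicate 2. The scaffold gene mut-16 had 29.4, 31.1 and 27.5 FPKM in the mutant libraries, against 28.5, 20.9 and 22.6 FPKM in the N2 libraries. N2 replicate 1 lay among the mutant libraries, and the log2 change of 0.29 (95% interval -0.04 to 0.62) did not pass. The nucleotidyltransferase gene rde-3 (0.46) and the DEAD-box gene mut-14 (-0.22) did not pass either.

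Among the 12 P granule members, 10 were tested, with pgl-3 and glh-4 higher and meg-1 lower. In the constitutive scaffold, PGL-1 and PGL-3 assemble the granule, and the Vasa-like GLH helicases help to hold it at the nuclear pore. For pgl-1, the FPKM was 159, 137 and 143 in the mutant libraries, against 155, 94.4 and 117 in the N2 libraries. For pgl-3, it was 55.6, 46.95 and 53.9 in the mutant libraries, against 48.6, 23.5 and 32.3 in the N2 libraries. In both genes N2 replicate 1 fell within the mutant range. Only pgl-3 passed, at a log2 change of 0.63 ± 0.23 (SE, adjusted p = 0.0497), and 11 of 14 settings ended that call, the omission of any library but N2 replicate 1 among them. For pgl-1 the log2 change was 0.28 (95% interval -0.12 to 0.69), and whether the changes of both genes differ was not tested. The paralogue pgl-2 had a log2 change of 0.54 and an adjusted p of 0.0541.

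For glh-1, the FPKM was 214, 177 and 179 in the mutant libraries, against 174, 120.3 and 141 in the N2 libraries. All mutant libraries were higher, by a small gap to N2 replicate 1, and the log2 change of 0.39 missed the threshold (adjusted p = 0.0625). For glh-4, the FPKM was 33.9, 25.9 and 28.5 in the mutant libraries, against 24.9, 14.4 and 18.02 in the N2 libraries. It was higher at a log2 change of 0.62 ± 0.20 (SE, adjusted p = 0.0296), a call lost without mutant replicate 1 or 3, without N2 replicate 2 or 3, with no filter, with median-ratio scaling (0.37) and with germline-marker scaling (0.069). The relatives glh-2 (0.32) and glh-3 (0.30) did not pass. For deps-1, which promotes P granule assembly, the FPKM was 45.7, 49.3 and 47.8 in the mutant libraries, against 50.7, 27.7 and 44.1 in the N2 libraries. N2 replicate 1 was the highest of the 6 and N2 replicate 2 the lowest, and the log2 change was 0.26 (95% interval -0.21 to 0.73). Without N2 replicate 1, 7 of the 10 P granule genes were higher (42.8% of all genes were), glh-1 (0.53, adjusted p = 0.0117) and pgl-1 (0.47, adjusted p = 0.0187) among them. The count was 2 without mutant replicate 2 (28.5% of all genes were higher). It was 0 when any of the other 4 libraries was left out (22.2% to 28.8% of all genes), with median-ratio scaling (22.6%) and with germline-marker scaling (9.63%).

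Of the meg genes, meg-1 alone passed, as lower. This family encodes disordered proteins of the P granules of the early embryo, and its transcripts were low in all libraries. For meg-1 (chromosome X, 13927036 to 13929634, minus strand), the FPKM was 1.31, 1.68 and 1.45 in the mutant libraries, against 9.29, 2.37 and 5.21 in the N2 libraries. Every mutant library was below every N2 library, and the N2 libraries spread widely, with replicate 1 the highest. Expression of meg-1 fell by 1.28 ± 0.34 on the log2 scale (SE, adjusted p = 0.0132), and without N2 replicate 1 it fell by 0.89 (adjusted p = 0.0210). It was called lower in each of the 13 alternative settings in which it was tested. The gene meg-3 had 1.503, 1.61 and 1.34 FPKM in the mutant libraries, against 4.97, 1.503 and 3.10 FPKM in the N2 libraries. N2 replicate 2 lay within the mutant range, and the log2 change of -0.67 did not pass (adjusted p = 0.0710), while with median-ratio scaling, with quantile normalisation and without N2 replicate 2 it was called lower.

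Too low to test were meg-2, with 0.570, 0.642 and 0.652 FPKM in the mutant libraries against 1.51, 0.505 and 0.732 FPKM in the N2 libraries, and meg-4, with 0.766, 0.964 and 0.777 FPKM in the mutant libraries against 2.46, 0.682 and 1.54 FPKM in the N2 libraries. In all 4 meg genes N2 replicate 1 was the highest and N2 replicate 2 the lowest N2 library. The summed oocyte, germline, sperm and early embryo markers shared this order, as did all 10 tested P granule genes, meg-1 and meg-3 among them. It held in 60.8% of the tested members and in 28.3% of all genes tested. Of the 18 oocyte markers, 4 were lower in the mutant and none was higher (22.2% lower, against 15% of all genes tested), with a median log2 change of -0.56. At an unadjusted p under 0.05, 5 were lower (27.8%, against 16.8% of all genes tested) and none was higher. Of the 9 early embryo markers tested, 1 was higher and none was lower (11.1% higher, against 34.6% of all genes tested), with a median log2 change of 0.16. The part of either marker list in the meg levels was not tested. As a ratio within a library, chosen after its values were seen, meg-1 stood to pgl-1 as 0.00822, 0.0123 and 0.0102 in the mutant, against 0.0599, 0.0251 and 0.0446 in N2.

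The 3 other members were hrde-2, whose product helps to load HRDE-1, hrde-4 and ego-2. The rule takes in ego-2 by its name, but its product is a Bro1-domain protein known for acting with Notch signalling in the germ line rather than with small RNAs. It was higher, at 28.2 ± 1.13 FPKM in the mutant, against 19.2 ± 1.10 FPKM in N2 (SD, n = 3 each), with a log2 change of 0.53 (adjusted p = 0.00647) that turned to -0.029 under germline-marker scaling. The log2 changes of hrde-2 (0.54, adjusted p = 0.0547) and hrde-4 (0.31) did not pass. The genes hrde-2 and mut-15 lie 32 bases apart on chromosome V, plus strand.

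Beyond the named families, 71 other genes of the same pathways were tested, and 23 were higher and 2 were lower, which is 32.4% and 2.82%, against 34.6% and 15% of all genes tested. The higher share was thus near the background, and the median log2 change was 0.34, against 0.24 for all genes tested. The lists were drawn up by role, with earlier results of these data known. Without N2 replicate 1, 45 were higher (42.8% of all genes were). With any other library left out the number higher was 5 to 11 (22.2% to 28.8% of all genes). It was 6 with median-ratio scaling (22.6% of all genes) and 1 with germline-marker scaling (9.63% of all genes).

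The piRNA biogenesis list had 6 higher of 14 (42.9%, against 34.6% of all genes tested), none lower. For the forkhead factor gene unc-130, the mean was 3.23 ± 0.320 FPKM in the mutant, against 1.16 ± 0.225 FPKM in N2, and for tofu-4, which acts in piRNA production, it was 9.47 ± 0.327 FPKM in the mutant, against 5.02 ± 1.23 FPKM in N2. The silencing chromatin list had 5 higher of 11 (45.5%, against 34.6% of all genes tested), none lower. For set-2, an H3K4 methyltransferase gene, the mean was 20.99 ± 0.152 FPKM in the mutant, against 9.62 ± 1.91 FPKM in N2, and for set-32, a methyltransferase gene of nuclear RNAi, it was 7.03 ± 0.361 FPKM in the mutant, against 4.01 ± 1.31 FPKM in N2. These 4 genes had adjusted p of 0.000493 (unc-130), 0.00416 (tofu-4), 0.000621 (set-2) and 0.0152 (set-32).

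Of the ERI and 22G factors, 4 of 14 were higher (28.6%, against 34.6% of all genes tested). For eri-3, a gene of the ERI complex, the mean was 13.1 ± 1.64 FPKM in the mutant, against 7.05 ± 1.38 FPKM in N2. The helicase gene eri-6 was at 5.49 ± 0.239 FPKM in the mutant, against 3.61 ± 0.280 FPKM in N2. Of the germ granule partners, 5 of 14 were higher (35.7%), with log2 changes of 0.50 for the Z granule helicase gene znfx-1 and 0.64 for mip-1, which recruits GLH-1. Of the Dicer and microRNA list, 3 of 13 were higher (23.1%), at 0.36 for vig-1, 0.48 for Dicer itself, dcr-1, and 0.36 for ain-2. None of these 3 lists had a gene that was lower (15% of all genes tested were). Neither they nor the piRNA and chromatin lists had one at an unadjusted p under 0.05 in limma, where 16.8% of all genes were lower.

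Of the 5 double-stranded RNA transport genes, sid-2 and sid-3 were lower (15% of all genes tested were) and none was higher. The counts were the same at an unadjusted p under 0.05 in limma, where 16.8% of all genes were lower. For sid-2, the intestinal receptor for ingested double-stranded RNA, the mean was 19.4 ± 1.18 FPKM in the mutant, against 33.1 ± 5.11 FPKM in N2 (log2 change -0.73, adjusted p = 0.00313). For sid-3, a kinase gene for import, it was 16.4 ± 1.38 FPKM in the mutant, against 25.1 ± 2.06 FPKM in N2 (log2 change -0.58, adjusted p = 0.00659). The channel gene sid-1 (0.28), sid-5 (-0.31) and rsd-3 (0.12) did not pass. Of 11 intestine markers, 2 were higher and 6 were lower in the mutant (54.5% lower, against 15% of all genes tested), with a median log2 change of -0.47. The list summed to 9122 to 11082 FPKM in the mutant, against 6743 to 8984 FPKM in N2. The genes that were higher, asp-1 and cpr-1, carried that sum, and the other 9 summed to 1583 to 1930.3 FPKM in the mutant, against 2271 to 2710.2 FPKM in N2. The part of intestinal content in the level of sid-2 was not tested.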

How the data were processed

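Whole adults of the bcf-1(ylf1) mutant and of N2 were sequenced, 3 libraries each. Per the labels' protocols, TRIzol was used for the RNA and a VAHTS kit for the libraries. The submitters' processing notes name fastp and the build WBcel235. Not given in the sources used here are the aligner, the quantifier and the use of strand. The deposited table holds FPKM values per gene, a unit inferred from the values, so read depth is unknown and no counting interval was made. Locus names were matched to RefSeq symbols (19959 of 20894 rows matched, 909 were unnamed loci). Positions are those of WBcel235.

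A gene entered the test when 3 or more libraries reached 1 FPKM, and values were taken as log2(FPKM + 1), a scale that understates the change of low genes. The test was that of limma 3.58.1 in R 4.3.3 (genotype as the only term, empirical Bayes with a mean-variance trend, two-sided). P-values were adjusted by Benjamini-Hochberg over all 13576 genes tested, at 0.05. Fold differences are ratios of mean FPKM. Alternatives were a pseudocount of 0.1, no filter, a filter at 5 FPKM, median-ratio and quantile scaling, no trend, a replicate block and omission of each library. Scaling to 18 germline markers was added after seeing the data.

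The members and lists were chosen with earlier results of these data known. Every member was named, and library values were given for 22 genes chosen by role and for the 12 members past the threshold with the largest change. Of each pathway list the 2 genes with the smallest p were named with values.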

Additional observations from a re-analysis of the deposited data

How the results depend on the processing

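Over 14 alternative settings, 592 of 708 member values kept their side of the threshold without reversing a call. Of the rest, 70 lost the threshold, 39 gained it and in 7 the sign of a called change reversed. A member that passed in neither fit counts among the 592 even where its sign changed. Under germline-marker scaling alone, 32 of the 43 positive changes turned negative. Members called were 18 higher and 1 lower in the analysis reported, 6 and 6 with median-ratio scaling, 3 and 4 with germline-marker scaling, 13 and 3 with quantile normalisation, and 16 and 0 with a filter at 5 FPKM, which left meg-1 untested. Leaving out each library gave 9 to 41 higher and 1 to 2 lower, the most without N2 replicate 1. The replicate block gave 16 higher and 2 lower, meg-3 being added. Shares of members higher and lower were 25.5% and 5.88% with quantile normalisation, against 24.0% and 20.6% of all genes. They were 33.3% and 0.0% with the filter at 5 FPKM, against 30.4% and 15.7%. With the block they were 31.4% and 3.92%, against 31.7% and 13.7%. Deviations of same-numbered libraries from their group means correlated at 0.01, -0.07 and -0.28, and those of all pairs at -0.28 to 0.34. Deviations from a mean of 3 libraries constrain one another, so these values cannot tell whether the libraries were paired by number. The median change of members was 0.14 with median-ratio scaling and -0.17 with germline-marker scaling, where that of all genes was -0.28. Of the members called higher, rde-1 (-0.025), ppw-1 (-0.038), rde-12 (-0.15), alg-1 (-0.17), mut-15 (-0.072), mut-7 (-0.054) and ego-2 (-0.029) turned negative under germline-marker scaling, none past the threshold. Other pathway genes called were 25, against 15 with no filter, 11 with median-ratio scaling, 7 with germline-marker scaling and 7 to 47 when each library was left out. Among all genes, 4703 higher and 2035 lower became 3065 and 3096 with median-ratio scaling and 1307 and 3109 (4416 in all) with germline-marker scaling, 3074 were higher with a filter at 5 FPKM, and 2877 to 5720 when each library was left out. The cause of these shifts was not tested. Depth is unknown, and 3 libraries a group limit the precision of each change.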

Other observations

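Members lie on all 6 chromosomes, and chromosome I holds 21 of the 54 (38.9%, against 14.4% of the rows matched to RefSeq). Both rrf-1 and ego-1 are there, 563 bases apart, and on chromosome X meg-2 and meg-1 lie 906 bases apart on the same strand, so reads near the ends of such neighbours may have been assigned in a way that the sources used here do not give. In all, 13 members overlap another coding gene, among them prg-1 and csr-1.

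The ratio of rrf-3 to ergo-1, a polymerase and an Argonaute of the same 26G pathway, was 0.506, 0.403 and 0.489 in mutant libraries, against 0.377, 0.347 and 0.269 in N2 libraries. Relative to the summed germline markers, hrde-1 stood at 0.116, 0.110 and 0.122 in mutant libraries, against 0.151, 0.137 and 0.145 in N2 libraries, and pgl-1 at 0.238, 0.211 and 0.220 in mutant libraries, against 0.257, 0.288 and 0.275 in N2 libraries. Both lay below N2 in every mutant library on this measure, while their FPKM overlapped between the genotypes. These ratios were picked with their values in view, and no test was made on them.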
